A study of Mus musculus with 17 samples.

Results

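The comparison described here sets epidermal stem cells (EpiSCs) against hair follicle stem cells (HFSCs), both taken from the skin of wild-type mice fed ad libitum. It uses 2 EpiSC libraries and 3 HFSC libraries of the 17 libraries of the series. Libraries were chosen by their labels and by the table that holds all 5 of them, and genes by a mean of at least 1 TPM (a transcript level scaled to gene length and library total) over those 5. The remaining libraries are HFSCs: from mice fasted for 24 or 48 h, from a long-term experiment on 6 months of alternate-day fasting with its own fed controls, and from the 2nd telogen, a resting phase of the hair cycle. Cells were purified by fluorescence-activated sorting, and their RNA was amplified as full-length polyadenylated messages before sequencing, per the series' design text and the labels' protocols. The labels give neither the strain, age or sex of the mice nor the surface proteins by which the cells were sorted, and they leave unsaid whether each replicate was another mouse. The p-values therefore reflect how these libraries vary among themselves, and that variation may be technical. In sorted bulk samples, fewer cells of a kind and less RNA per cell cannot be told apart.

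EpiSCs lie in the basal layer of the epidermis between follicles, divide there, and replace the cells that leave the layer to become the barrier. HFSCs lie in the bulge, a niche in the outer root sheath below the sebaceous gland, where they rest for most of the hair cycle and give rise to the new follicle when growth starts. The cell types share the basal keratins Krt5 and Krt14, and are told apart in mouse skin by surface proteins such as CD34 in the bulge and Sca-1, the product of Ly6a, in epidermis and upper follicle.

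The library labels were checked with 3 marker genes. Ly6a (chromosome 15, 74994877 to 74998031, GRCm38) had 643 and 689 TPM in EpiSCs, against 4.98, 5.17 and 5.04 TPM in HFSCs. Cd34, a sialomucin of the bulge (chromosome 1, 194938819 to 194961279), had 0.113 and 0.511 TPM in EpiSCs, against 939, 776 and 519 TPM in HFSCs. Lhx2, a transcription factor that keeps HFSCs at rest (chromosome 2, 38339281 to 38369733), had 0.145 and 0.0505 TPM in EpiSCs, against 115, 146 and 82.9 TPM in HFSCs. For each of the 3 the groups were far apart in the direction the labels give. The log2 fold changes, EpiSCs minus HFSCs, were 6.78 ± 0.21 for Ly6a (adjusted p = 1.21e-06), -9.13 ± 0.29 for Cd34 (adjusted p = 1.31e-06) and -6.69 ± 0.33 for Lhx2 (adjusted p = 9.78e-06). Here and below, levels are TPM after removal of the transcripts of the mitochondrial genome, listed in the order of the replicate numbers in the sample titles, fold changes are differences of mean log2(TPM + 1) and understate the change of low genes, ± is their standard error from the limma fit, and p-values are adjusted over all genes tested.

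Of the 35674 gene symbols in the table, 11761 were tested. 2003 genes (17%) were higher and 1724 (14.7%) were lower in EpiSCs at an adjusted p under 0.05, 31.7% of all tested. The median over all tested genes was 0.07. In each of the 3727 called genes the groups did not overlap, as they did not in 60.6% of all tested genes. 289 of the higher and 292 of the lower genes had a fold change beyond 3 on the log2 scale. The call count rests on having both EpiSC libraries: without EpiSC library 1, 494 genes were higher and 504 lower, and without library 2, 436 and 562. For a gene list, counts are over the members that passed the filter. The counts without library 1 and without library 2 follow in parentheses. A member that fell below the filter in those fits is absent from those counts. Each list's counts stand beside shares of 17% higher and 14.7% lower over all tested genes. Those in parentheses stand beside the smaller call counts of those fits. The 29 lists hold 1064 distinct genes, of which 914 passed. Of the calls, 0 changed direction in either fit. Among the genes named below, Crct1, Epcam, H2-T23, Id1, Itgb4, Krt5, Lamb3, Lor and Smo lost their call when 1 HFSC library was left out. Their adjusted p values in the limma fit were then 0.0513 to 0.112. Replicates correlated at r = 0.981 in EpiSCs and 0.924 to 0.939 in HFSCs across genes, and libraries of different cell type at 0.749 to 0.783.

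The share of transcripts from the mitochondrial genome differed between the groups. They took 3.59% and 2.84% of all TPM in EpiSC libraries, against 33.9%, 25.4% and 32.7% in HFSC libraries. The EpiSC libraries lay well below all 3 HFSC libraries (exact permutation test of the share, two-sided p = 0.1, the smallest that 2 against 3 libraries allow). HFSCs of the 2nd telogen had 3.46% and long-term fed HFSCs 3.88% on average (n = 2 each), near the EpiSC share. In the same experiment as the fed libraries, HFSCs of mice fasted for 24 h had 27.5% and those fasted for 48 h 10.02% (n = 3 each). Since such a share lowers the TPM of all other genes, the mitochondrial genes were removed and the rest rescaled. With them kept in, 3711 genes were higher and 1071 lower, so that 77.6% of calls were higher in place of 53.7%, and the median of all genes moved to 0.50. Some nuclear pseudogenes carry mitochondrial sequence: 5 tested symbols shared at least 10% of their 31-base words with mitochondrial transcripts, and they held 0.632% and 0.546% of the rescaled total in EpiSCs, against 5.98%, 4.98% and 6.27% in HFSCs. With these also removed, 1821 genes were higher and 1903 lower.

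**Figure D1:**
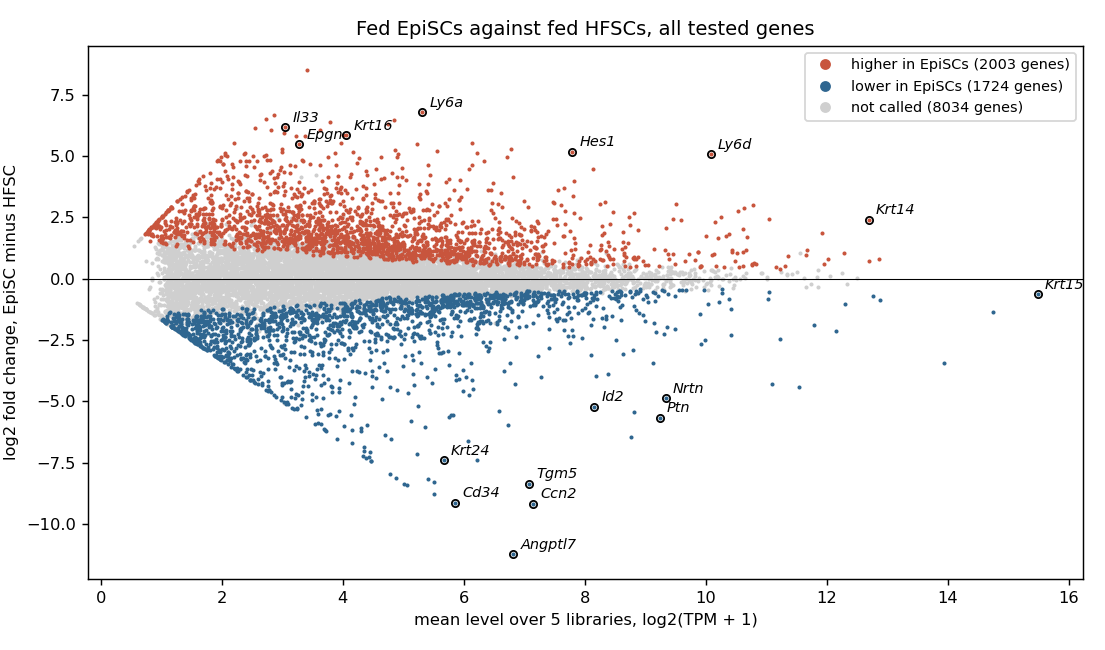
Each point is a gene, with its mean level over the 5 fed libraries on the horizontal axis and the log2 fold change, EpiSC minus HFSC, on the vertical axis. 2003 genes were called higher and 1724 lower in EpiSCs; circles mark genes named in the text, from Angptl7 at -11.23 to Ly6a at 6.78.

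Leaving out Gm and Rik symbols, the called genes with the largest fold changes and at least 50 TPM in the higher group began in EpiSCs with Ly6a, Il22ra2 and Il20ra. Il22ra2, the secreted decoy receptor for interleukin-22, had 72.6 and 184 TPM in EpiSCs, against 0.341, 0 and 0.143 TPM in HFSCs. Il20ra, a subunit of the receptors for interleukins of the IL-10 family, had 86.1 and 115 TPM in EpiSCs, against 0.24, 0.0449 and 0 TPM in HFSCs. Neither receptor reached 1 TPM in an HFSC library. Il33, an alarmin of barrier cells, had 103 and 110.3 TPM in EpiSCs, against 0.652, 1 and 0 TPM in HFSCs, again with no overlap. The others were Tnfrsf19, a receptor of the TNF family (6.39), Cpxm2, a carboxypeptidase-like secreted protein (6.14), the serotonin transporter Slc6a4 (6.06), the glucose transporter Slc2a12 (6.05), Ly6c1, a paralog of Ly6a (5.92), Arc, an activity-regulated immediate early gene (6.29), the transcription factor Cebpb (6.47) and the stress keratin Krt16 (5.85), all as log2 fold changes. Levels of Ly6a and Ly6c1 may share reads between these similar genes.

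The 12 genes furthest below were led by Angptl7, a secreted angiopoietin-like protein, with 0.0759 and 0.0393 TPM in EpiSCs, against 1484, 3946 and 2785 TPM in HFSCs (-11.23 ± 0.36, adjusted p = 1.36e-06). Ccn2, a matricellular target of the YAP and TGF-beta pathways, had 1.98 and 2.3 TPM in EpiSCs, against 2292, 3195 and 795 TPM in HFSCs. Tgm5, a transglutaminase, had 3.33 and 3.08 TPM in EpiSCs, against 1339, 1608 and 1191 TPM in HFSCs. EpiSC levels were under 4 TPM in all 3 genes while the lowest HFSC library had 795 TPM of Ccn2 and more of the other two. Shisa2, which retains Wnt and FGF receptors in the endoplasmic reticulum, the LIM protein Pdlim3, myocilin (Myoc), the hair keratin-associated protein gene Krtap17-1 and choline acetyltransferase (Chat) were listed at 0 in both EpiSC libraries. Their HFSC ranges were 299 to 371 TPM for Shisa2, 252 to 476 TPM for Pdlim3, 229 to 350.5 TPM for Myoc, 242 to 258 TPM for Krtap17-1 and 135 to 257 TPM for Chat. Cd34, the protease inhibitor-like Wfdc3 (-8.79), the calmodulin-like Calml3 (-8.30) and the lipid phosphatase Plpp1 (-8.15) completed this group.

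Genes that define HFSCs were lower in EpiSCs almost throughout: 23 of 24 (13 and 16) passed the test, against 14.7% of all tested genes, and none was higher, with a median log2 fold change of -2.86. Tbx1, a transcription factor of the bulge, and Lgr5, a receptor for R-spondins that marks the lower bulge, were listed at 0 in both EpiSC libraries and had 181, 177 and 123 TPM (Tbx1) and 77, 91.3 and 47.5 TPM (Lgr5) in HFSC libraries. Cd200, an immune-inhibitory surface protein, had 1.29 and 4.19 TPM in EpiSCs, against 566, 575 and 583 TPM in HFSCs. Ptn, a secreted growth factor, had 53.1 and 59.97 TPM in EpiSCs, against 3035, 2884 and 2809 TPM in HFSCs. Postn, a matrix protein, had 35.2 and 60.9 TPM in EpiSCs, against 1308, 2835 and 2232 TPM in HFSCs. In each of these the lowest HFSC library stood far above the highest EpiSC library. Sox9, the transcription factor that specifies the outer root sheath, was lower by less, with 7.89 and 11.4 TPM in EpiSCs, against 182, 204 and 165 TPM in HFSCs. Krt15, a keratin of basal cells that is often used as a bulge marker, was the most abundant gene of the list in both cell types, with 35123 and 35451 TPM in EpiSCs, against 56851, 53166 and 54755 TPM in HFSCs, a log2 fold change of -0.64 ± 0.13 that was 0 after quantile normalisation, since it was the top gene of every library. Gas1 missed the threshold (log2 fold change -0.56, 95% interval -1.08 to -0.04, adjusted p = 0.0943).

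**Figure D2:**
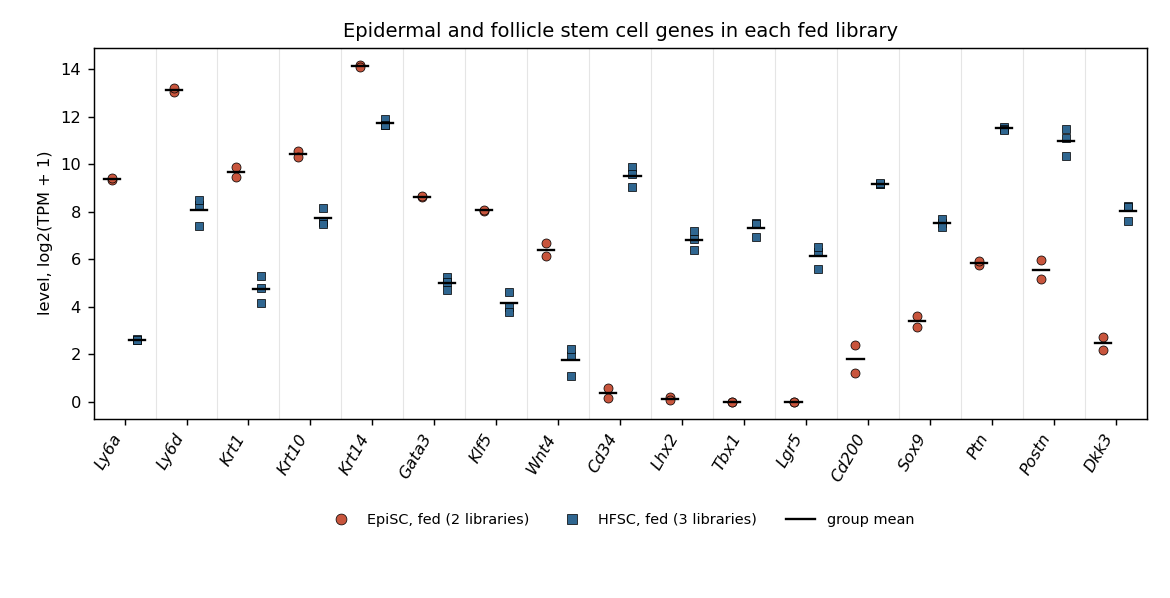
Levels of epidermal genes (left) and follicle stem cell genes (right) as log2(TPM + 1) in each fed library, with EpiSC libraries left of HFSC libraries and bars at the group means. Points of the groups lie apart for every gene drawn; Krt14 and Ptn are abundant in both cell types while Tbx1 and Lgr5 are at 0 in EpiSCs.

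The reverse pattern held for genes of the interfollicular epidermis and upper follicle, of which 19 of 24 (13 and 13) were higher in EpiSCs, against 17% of all tested genes, at a median of 3.01. Ly6d, a surface protein of epidermal keratinocytes, had 8480.4 and 9449 TPM in EpiSCs, against 310.2, 168 and 355 TPM in HFSCs. Lrig1, which marks stem cells of the upper follicle and restrains EGF receptors, had 25.8 and 48.5 TPM in EpiSCs, against 4.5, 6.42 and 1.72 TPM in HFSCs. Gata3, a transcription factor of the differentiating epidermis, had 391 and 400.0 TPM in EpiSCs, against 25.1, 36.9 and 32 TPM in HFSCs. EpiSC libraries were several times higher than any HFSC library in each. Cst6 (-1.57), a cystatin of cornified cells, and Krt79 (-1.54), a keratin of the sebaceous duct, were lower. Lgr6, the R-spondin receptor of the upper follicle, did not pass (log2 fold change 0.43, 95% interval -0.16 to 1.03).

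Keratins divided evenly, with 9 higher (6 and 6) and 9 lower (4 and 3) of 19 tested. The basal keratin Krt14 had 18700 and 17325 TPM in EpiSCs, against 3184, 3843 and 3205 TPM in HFSCs, and its partner Krt5 had 11592 and 9294 TPM in EpiSCs, against 5118, 7228 and 5735 TPM in HFSCs. Both were above every HFSC library, Krt14 by more. Krt1 and Krt10, the pair made once a cell leaves the basal layer, had log2 fold changes of 4.95 ± 0.32 and 2.69 ± 0.21, and Krt1 had 951 and 714 TPM in EpiSCs, against 16.7, 26.4 and 38.3 TPM in HFSCs. Krt24 had 1.83 and 0.93 TPM in EpiSCs, against 257, 437 and 548 TPM in HFSCs. Krt6a, a keratin of the inner bulge layer and of stressed epidermis, had 4.83 and 2.15 TPM in EpiSCs, against 218, 628 and 547 TPM in HFSCs, and reads of its close paralogs may be shared. These 2 keratins were nearly absent from EpiSCs, in contrast to the stress keratin Krt16, with 153 and 232 TPM in EpiSCs, against 2.56, 1.95 and 2.38 TPM in HFSCs. Krt16 overlapped between EpiSCs and the 4 further HFSC libraries compared below.

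Late differentiation genes were divided. Of 25 members of the cornified envelope list, 7 were higher (2 and 3) and 11 lower (4 and 5), median -1.29. The desmosomal cadherin Dsg1a (4.15) and Casp14, a caspase of cornification (3.68), were among the higher genes. Tgm3, a transglutaminase of the upper layers, had 14.3 and 15.4 TPM in EpiSCs, against 0, 0.0248 and 0 TPM in HFSCs. Among the lower genes, S100a3 had 2.73 and 1.32 TPM in EpiSCs, against 56.2, 31.6 and 92 TPM in HFSCs, and loricrin (Lor), the main protein of the envelope, had 4.85 and 12.7 TPM in EpiSCs, against 89.6, 24.1 and 49.8 TPM in HFSCs. HFSC libraries varied widely in these late genes, with library 2 the lowest of the 3 for loricrin and for Crct1, a gene of the same complex (1.68 and 15.6 TPM in EpiSCs, against 58.8, 20.1 and 83.9 TPM in HFSCs). Loricrin and Crct1 overlapped between EpiSCs and the 4 further HFSC libraries compared below.

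Transcription factors of skin lineages were split by cell type, with 12 higher (9 and 9) and 17 lower (8 and 10) of 37. Hes1, a repressor induced by Notch, had 1443 and 2498 TPM in EpiSCs, against 66.5, 39.9 and 52.5 TPM in HFSCs, the highest level among the factors that were higher. Zfp750, a driver of terminal differentiation, had 82.5 and 123 TPM in EpiSCs, against 2.53, 2.02 and 5.47 TPM in HFSCs, and Ovol1 had 127 and 175 TPM in EpiSCs, against 2.9, 3.55 and 16.8 TPM in HFSCs. All 3 were an order of magnitude apart or nearly so. In the other direction, Id2, an inhibitor of basic helix-loop-helix factors that BMP induces, had 29.97 and 33.7 TPM in EpiSCs, against 1096, 1286 and 1264 TPM in HFSCs. Trp63, the master factor of stratified epithelia, did not pass and its groups overlapped (log2 fold change 0.25, 95% interval -0.24 to 0.73), with 333 and 381 TPM in EpiSCs, against 229, 359 and 327 TPM in HFSCs.

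Hox genes, which record position along the body, and related homeobox genes were more often lower than higher in EpiSCs. Of 26 members above the filter, 13 were lower (6 and 6) and 1 higher (0 and 0), median -1.10. Hoxc13, the factor of the hair shaft lineage, had 0.167 and 0.219 TPM in EpiSCs, against 15.3, 22 and 26.3 TPM in HFSCs. Hoxd8 had 0.312 and 0 TPM in EpiSCs, against 20.9, 9.73 and 12.9 TPM in HFSCs, and Hoxd4 was listed at 0 in both EpiSC libraries, against 11.2, 10.4 and 4.48 TPM in HFSCs. Of 8 genes of the Hoxa cluster, 1 was lower (0 and 1) and none higher. Hoxc4 was the only member higher in EpiSCs (1.78 ± 0.47, adjusted p = 0.0221; not called when either EpiSC library was left out).

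**Figure D3:**
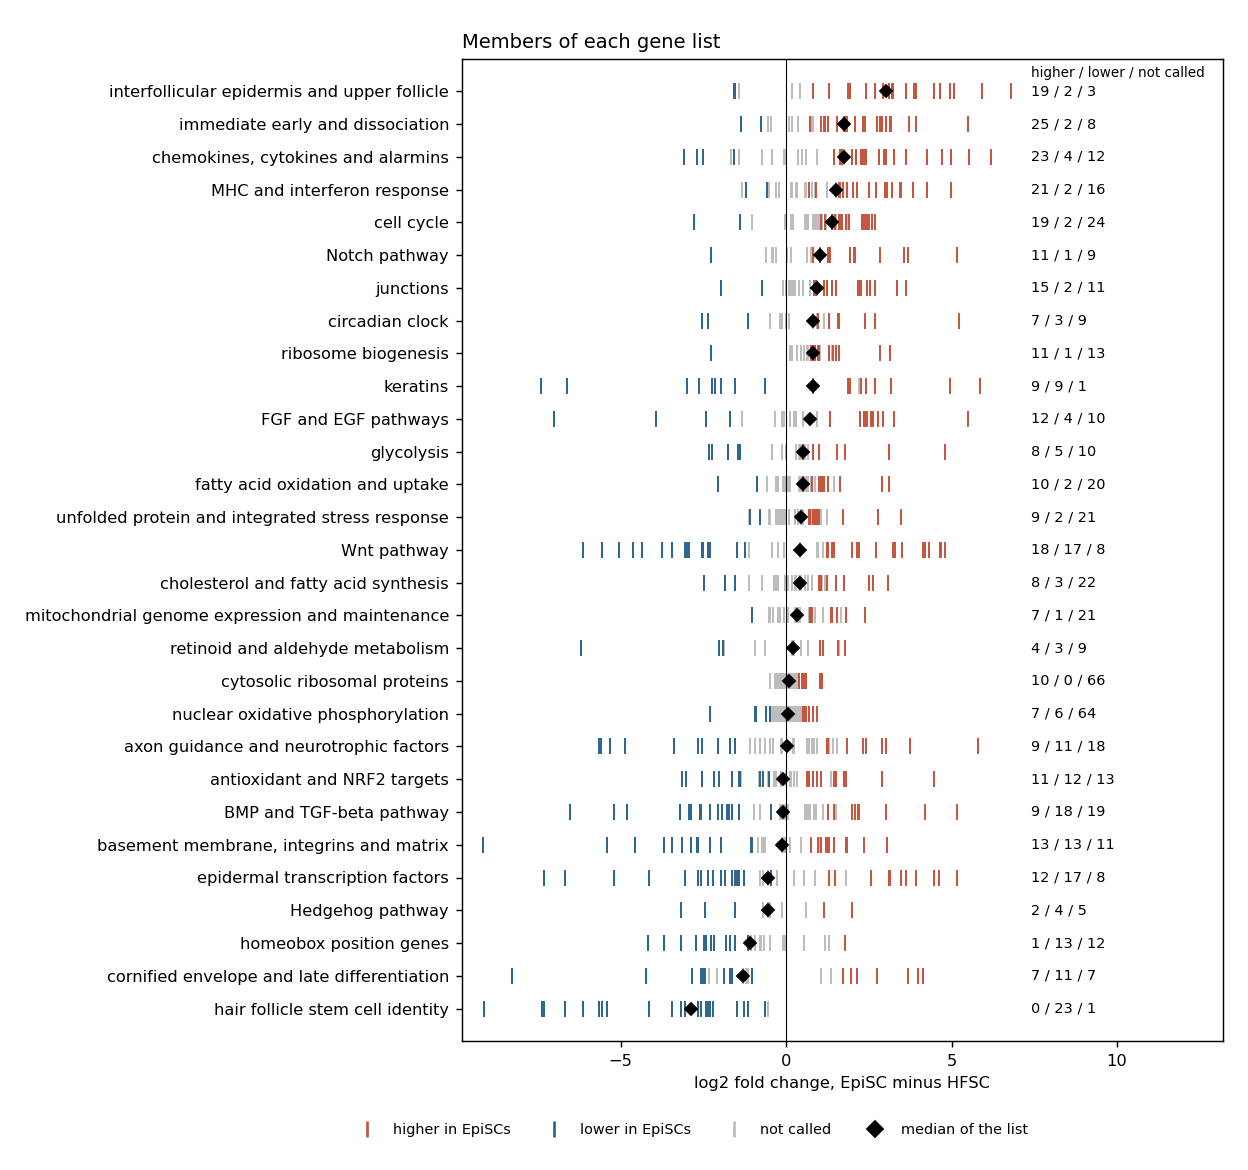
Log2 fold changes, EpiSC minus HFSC, of the tested members of 29 gene lists, 1 tick per gene, with the median as a diamond and counts of higher, lower and not called members at the right. Lists run from interfollicular epidermis (3.01) to hair follicle stem cell identity (-2.86); the median over all tested genes was 0.07.

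Wnt signalling drives hair growth and also maintains the basal epidermis: secreted Wnt ligands bind Frizzled receptors and stabilise beta-catenin, R-spondins acting through Lgr receptors strengthen the signal, and secreted inhibitors hold it back. Of 43 tested genes, 18 were higher (8 and 8) and 17 lower (11 and 13) in EpiSCs, and the roles fell on different sides. 9 of 11 ligands tested were higher in EpiSCs (5 and 5) and 1 was lower (0 and 0). Wnt3 had 93.6 and 60.3 TPM in EpiSCs, against 5.49, 1.44 and 0.713 TPM in HFSCs. Wnt4 had 102 and 68.9 TPM in EpiSCs, against 2.81, 1.15 and 3.69 TPM in HFSCs. Wnt16 had 20.2 and 36.1 TPM in EpiSCs and was listed at 0 in all 3 HFSC libraries. The lower ligand was Wnt5b, with 3.29 and 3 TPM in EpiSCs, against 27.7, 19.2 and 14 TPM in HFSCs.

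Receptors were divided, and the 5 secreted inhibitors tested were all lower in EpiSCs (4 and 5). The Frizzled receptors Fzd1, Fzd2, Fzd3 and Fzd7 were lower in EpiSCs (2 and 3) and Fzd6, Fzd8 and Fzd10 higher (1 and 1). Fzd8 fell below the filter when either EpiSC library was left out, and in EpiSCs it lay below the 4 further HFSC libraries compared later. Fzd2 had 1.67 and 0.871 TPM in EpiSCs, against 58.7, 67.4 and 40.9 TPM in HFSCs, and Fzd10 had 16.9 and 23.9 TPM in EpiSCs, against 0, 0.176 and 0 TPM in HFSCs. The R-spondin receptors Lgr4 (-2.36) and Lgr5 and the co-receptor Lrp6 (-1.23) were lower. The 5 counted as secreted inhibitors were Sfrp1, Sostdc1 and Wif1, with Dkk3 and Dkkl1 included by family alone. Apcdd1, an inhibitor held in the membrane, was not counted. Its mean level was higher in EpiSCs with either EpiSC library left out. Dkk3, of the Dickkopf family, had 3.54 and 5.64 TPM in EpiSCs, against 193, 299 and 293 TPM in HFSCs. Wif1, which binds Wnt proteins directly, had 0.0765 and 0 TPM in EpiSCs, against 52.5, 21.8 and 31.4 TPM in HFSCs, and Sfrp1, a soluble Frizzled-like decoy, had 13.4 and 18.3 TPM in EpiSCs, against 142, 206 and 199 TPM in HFSCs. EpiSCs had less of all 3 genes than any HFSC library. Of the nuclear factors, Lef1 was listed at 0 in both EpiSC libraries and had 13.7, 13.6 and 10.6 TPM in HFSCs, and Tcf7l1, a repressor in resting stem cells, had a log2 fold change of -3.05. Axin2, a direct target of the pathway, had 10.1 and 9.35 TPM in EpiSCs, against 8.98, 11.5 and 10.4 TPM in HFSCs, and the groups overlapped (not called, log2 fold change -0.07, 95% interval -0.81 to 0.67).

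BMP signals hold HFSCs at rest, and TGF-beta ligands of the niche counter them. Of 46 members tested, 9 were higher (3 and 2) and 18 lower (8 and 9) in EpiSCs. The ligands Bmp4 and Bmp3 were higher: Bmp4 had 66.7 and 68.4 TPM in EpiSCs, against 0, 1.73 and 1.52 TPM in HFSCs, and Bmp3 had 15 and 20.2 TPM in EpiSCs and was listed at 0 in all 3 HFSC libraries. Tgfbr2, the type II receptor for TGF-beta, had 24 and 24.1 TPM in EpiSCs, against 1.13, 3.8 and 1.97 TPM in HFSCs. 5 of 6 secreted antagonists were lower (4 and 4). Grem1, which binds BMP proteins, was listed at 0 in both EpiSC libraries and had 98.1, 87.9 and 86 TPM in HFSCs. Sostdc1, an antagonist of both BMP and Wnt, had 118 and 146 TPM in EpiSCs, against 1133, 812 and 1095 TPM in HFSCs, and Fst, which encodes follistatin, had 11.8 and 18.8 TPM in EpiSCs, against 111, 97.3 and 79.4 TPM in HFSCs. The targets Id1, Id2 and Id3 were lower to different degrees, at -0.45, -5.21 and -1.43 (log2 fold changes), Id1 only with mitochondrial genes removed (0.032 with them kept). Ltbp2, a TGF-beta binding matrix protein, was listed at 0 in EpiSCs, against 16, 51.8 and 24.1 TPM in HFSCs.

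**Figure D4:**
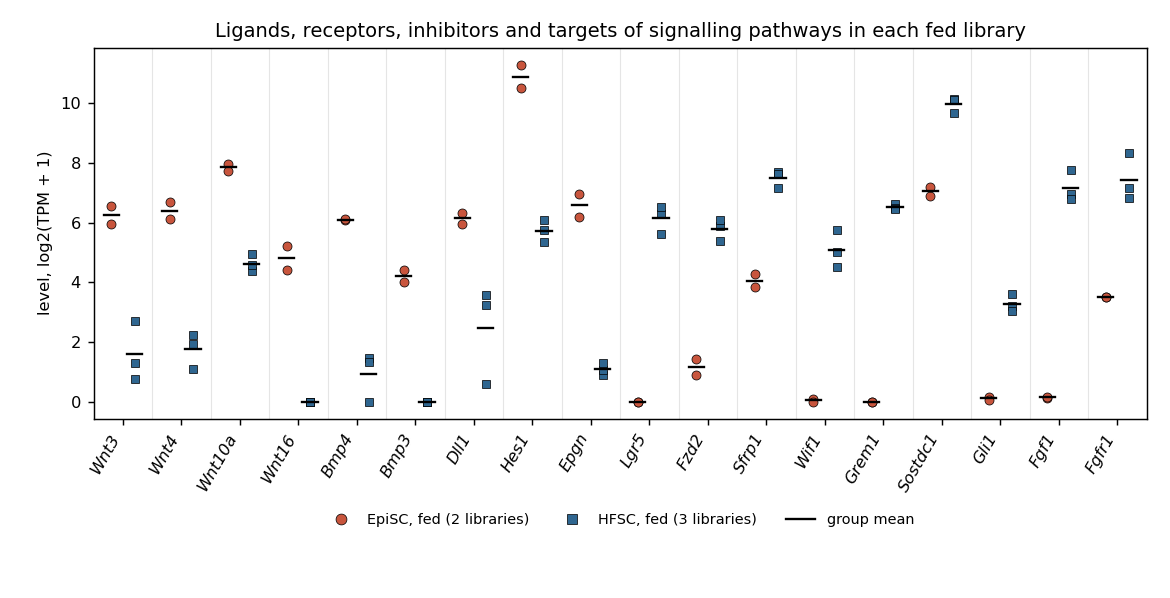
Levels of signalling genes as log2(TPM + 1) in each fed library, EpiSC libraries left of HFSC libraries, bars at the group means. Wnt3 to Epgn lie higher in EpiSCs and Lgr5 to Fgfr1 lower, with Wnt16 and Bmp3 at 0 in HFSCs and Grem1 and Lgr5 at 0 in EpiSCs.

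Notch signalling, in which ligands on a neighbouring cell release an intracellular fragment of the receptor that turns on Hes and Hey genes, moves basal keratinocytes into differentiation. 11 of 21 tested members were higher in EpiSCs (4 and 3) and 1 was lower (0 and 0). Of the ligands, Dll1 had 61.5 and 79.8 TPM in EpiSCs, against 8.54, 10.9 and 0.523 TPM in HFSCs. Dlk2, a non-canonical ligand, had 204 and 163 TPM in EpiSCs, against 8.13, 20.8 and 17.5 TPM in HFSCs. The receptor Notch3 had 3.65 and 2.76 TPM in EpiSCs and was listed at 0 in HFSCs. Notch3 passed the filter through its EpiSC values alone, and fell below it when either EpiSC library was left out. Notch1 did not pass the test (19 and 18.1 TPM in EpiSCs, against 3.59, 18.2 and 4.26 TPM in HFSCs), and its HFSC library 2 was level with the EpiSC libraries. Of the targets, Hes1 and the feedback inhibitor Nrarp (107 and 169 TPM in EpiSCs, against 17.5, 15.4 and 22.1 TPM in HFSCs) were higher and Hey1 was lower (0.219 and 0.337 TPM in EpiSCs, against 4.76, 5.49 and 5.34 TPM in HFSCs). The processing enzymes Adam10 (2.08) and Adam17 (1.32) were higher by smaller fold changes.

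In the Hedgehog pathway, 4 of 11 members were lower (2 and 3) and 2 higher (0 and 0). The transcription factors Gli1, Gli2 and Gli3 and the co-receptor Boc were the lower genes, and Gli1, itself a target of the pathway, had 0.123 and 0.0505 TPM in EpiSCs, against 8.33, 7.19 and 11.3 TPM in HFSCs. Smo, the signal transducer, was higher (1.14 ± 0.33), and the receptor Ptch1 did not pass (-0.69, 95% interval -1.65 to 0.26).

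Ligands and receptors of the FGF and EGF families differed by member: 12 of 26 were higher (5 and 4) and 4 lower (2 and 2). Epgn, a ligand of the EGF receptor, had 72.2 and 123 TPM in EpiSCs, against 0.863, 1.08 and 1.46 TPM in HFSCs. Fgf1 had 0.102 and 0.112 TPM in EpiSCs, against 122, 216 and 109.8 TPM in HFSCs. EpiSCs were the high group for the first ligand and the low group for the other. Among FGF receptors, Fgfr1 had 10.4 and 10.5 TPM in EpiSCs, against 112, 318 and 143 TPM in HFSCs, whereas Fgfr2 had 332 and 468 TPM in EpiSCs, against 70.3, 94.6 and 66.1 TPM in HFSCs and Fgfr3 had 108 and 121 TPM in EpiSCs, against 21.1, 35.5 and 12.7 TPM in HFSCs. Thus Fgfr1 was lower and the other two were higher in EpiSCs. Fgf18, which keeps HFSCs at rest, had a log2 fold change of -2.42 ± 0.44.

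The bulge is ringed by sensory and sympathetic nerve endings, and its cells make cues for them. Of 38 members of the axon guidance and neurotrophic list, 9 were higher (3 and 2) and 11 lower (7 and 6) in EpiSCs. Nrtn, which encodes neurturin, a ligand of the GDNF family, had 86.3 and 82.1 TPM in EpiSCs, against 3299, 2156 and 2209 TPM in HFSCs. Gfra1, a receptor subunit of that family, had 0.284 and 0.298 TPM in EpiSCs, against 43.9, 64.6 and 46.7 TPM in HFSCs. Bdnf was listed at 0 in both EpiSC libraries and had 10.3, 11.6 and 7.08 TPM in HFSCs. Of the semaphorins, Sema3e had 0.385 and 0.514 TPM in EpiSCs, against 53.4, 82.1 and 74.5 TPM in HFSCs, and Sema3f had 112 and 118 TPM in EpiSCs, against 0.472, 1.03 and 1.99 TPM in HFSCs. These 2 guidance cues thus lay on opposite sides. Sema3d (3.73) and the ephrin receptor Epha2 (3.01) were also higher.

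Junction genes were higher in EpiSCs in 15 of 28 cases (6 and 5) and lower in 2 (0 and 0). Cdh1, which encodes E-cadherin, had 248 and 301 TPM in EpiSCs, against 26.6, 55.3 and 47.8 TPM in HFSCs. Pkp1, a plaque protein of desmosomes, had 255 and 261 TPM in EpiSCs, against 17.3, 31 and 14.8 TPM in HFSCs, and the desmosomal cadherin Dsg2 had 29.2 and 44.6 TPM in EpiSCs, against 4.13, 3.23 and 1.2 TPM in HFSCs. Each was several times higher in both EpiSC libraries than in any HFSC library. Epcam, an epithelial adhesion protein, was lower, with 71.6 and 62.2 TPM in EpiSCs, against 121, 128 and 88.9 TPM in HFSCs, and 11 members did not pass.

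Genes of the basement membrane, integrins and matrix were divided. In that list 13 members were higher (2 and 2) and 13 lower (8 and 9) of 37. Itga6, the integrin of hemidesmosomes, had 302 and 371 TPM in EpiSCs, against 38.5, 40.7 and 40.2 TPM in HFSCs, and its partner Itgb4 had 95.7 and 93.1 TPM in EpiSCs, against 29, 64.8 and 32.9 TPM in HFSCs. Basement membrane collagen genes Col4a5 (1.85) and Col4a6 (1.81), Col16a1 (2.35) and the hemidesmosome laminin chains Lama3 (1.26) and Lamb3 (1.19) were higher as well. Lower genes included Ccn2, Postn, Fbln1 (3.13 and 3.87 TPM in EpiSCs, against 78.5, 107 and 134 TPM in HFSCs) and Sparc (-3.44). The laminin chain Lama5, the collagen gene Col7a1 and Agrn were lower too, whereas Ccn1, a relative of Ccn2, was higher. Npnt, the nephronectin that anchors the hair-raising muscle at the bulge, had 14.9 and 19.8 TPM in EpiSCs, against 77, 150.2 and 60.7 TPM in HFSCs, and the integrin gene Itgb6 had 4.71 and 5.64 TPM in EpiSCs, against 19.3, 51.2 and 55.1 TPM in HFSCs. Itgb1, the common beta chain, did not pass (0.45, 95% interval -0.03 to 0.94).

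Genes of immune communication were more often higher than lower in EpiSCs: 23 of 39 chemokines, cytokines, receptors and alarmins were higher (10 and 8) and 4 lower (3 and 4), median 1.74. Il1r2, a decoy receptor for interleukin-1, had 657 and 739 TPM in EpiSCs, against 20.8, 9.13 and 15.2 TPM in HFSCs. Il1rn, the soluble receptor antagonist, had 157 and 240.1 TPM in EpiSCs, against 8.48, 1.08 and 11.1 TPM in HFSCs. Both dampen interleukin-1, and for both the EpiSC libraries stood far above the highest HFSC library. Of chemokines, Ccl27a, which draws skin-homing T cells, had 5559 and 6024 TPM in EpiSCs, against 926, 1201 and 1126 TPM in HFSCs. Cxcl14 ran the other way with 324 and 397 TPM in EpiSCs, against 1704, 2041 and 2429 TPM in HFSCs, as did Cxcl12 (2.89 and 2.17 TPM in EpiSCs, against 19.2, 32.3 and 38.7 TPM in HFSCs) and Ccl7 (-2.70).

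Major histocompatibility complex (MHC) class I presents peptides to T cells, and low class I has been described in resting HFSCs of mice. 21 of 39 genes of antigen presentation and interferon response were higher in EpiSCs (10 and 7), 2 were lower (1 and 1), and the median was 1.497. The promoters of 4 class I genes are shown because all 4 genes were higher in EpiSCs. Each line gives the 250 bases before the RefSeq start (GRCm38.p6), 5′ to 3′ on the gene's strand. Capitals mark the letters that matched the interferon-stimulated response element in B2m and a kappa-B site, a site of NF-kappa-B, in the H2 genes.
B2m, chromosome 2, plus strand, chr2:122147437-122147686: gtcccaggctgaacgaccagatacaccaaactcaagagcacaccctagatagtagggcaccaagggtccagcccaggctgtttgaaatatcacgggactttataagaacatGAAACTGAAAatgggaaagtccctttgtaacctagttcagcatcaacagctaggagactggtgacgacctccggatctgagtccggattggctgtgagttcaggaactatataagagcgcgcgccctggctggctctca
H2-K1, chromosome 17, minus strand, chr17:34000348-34000597: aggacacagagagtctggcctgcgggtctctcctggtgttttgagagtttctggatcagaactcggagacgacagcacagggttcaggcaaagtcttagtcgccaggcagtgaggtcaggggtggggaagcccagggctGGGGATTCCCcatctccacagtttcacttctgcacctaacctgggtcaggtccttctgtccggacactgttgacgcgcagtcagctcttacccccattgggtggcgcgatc
H2-D1, chromosome 17, plus strand, chr17:35262844-35263093: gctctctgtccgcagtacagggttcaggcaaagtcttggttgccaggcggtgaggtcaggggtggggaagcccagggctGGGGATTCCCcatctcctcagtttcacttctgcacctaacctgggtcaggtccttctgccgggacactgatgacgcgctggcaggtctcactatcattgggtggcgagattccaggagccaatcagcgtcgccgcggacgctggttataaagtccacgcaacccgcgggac
H2-Q7, chromosome 17, plus strand, chr17:35438905-35439154: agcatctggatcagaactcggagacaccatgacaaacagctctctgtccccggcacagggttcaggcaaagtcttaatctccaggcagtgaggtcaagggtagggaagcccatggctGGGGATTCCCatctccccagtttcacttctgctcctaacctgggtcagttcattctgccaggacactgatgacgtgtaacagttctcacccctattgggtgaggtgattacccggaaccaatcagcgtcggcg

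B2m, the light chain common to class I molecules, had 3233 and 4079 TPM in EpiSCs, against 899, 796 and 999 TPM in HFSCs. The heavy chain gene H2-K1 had 2413 and 2730.1 TPM in EpiSCs, against 323, 295 and 321 TPM in HFSCs, and H2-D1 had 3176 and 3737 TPM in EpiSCs, against 614, 589 and 612 TPM in HFSCs. EpiSC libraries were at least 3 times as high as any HFSC library for all 3. The non-classical gene H2-Q7 had 179.8 and 304 TPM in EpiSCs, against 8.35, 6 and 5.44 TPM in HFSCs. H2-K1, H2-D1, H2-Q6 and H2-Q7 are close paralogs, so their reads may be shared and their single levels are uncertain. Another class I gene, H2-T23, was lower, with 188 and 207 TPM in EpiSCs, against 252, 352 and 293 TPM in HFSCs. The class I activator Nlrc5 had 8.62 and 21.1 TPM in EpiSCs, against 0.11, 0 and 1.26 TPM in HFSCs. Peptides for class I are cut by the immunoproteasome and carried into the endoplasmic reticulum by TAP. Psmb8, a catalytic subunit of the immunoproteasome, had 127 and 173 TPM in EpiSCs, against 9.63, 10.5 and 8.47 TPM in HFSCs. Psmb9, another such subunit, and Tap1 lie on opposite strands of chromosome 17, with RefSeq starts 226 bases apart and spans that overlap in GENCODE M21, so that reads of the overlap cannot be told apart. They had log2 fold changes of 2.14 ± 0.31 and 1.71 ± 0.30. Tap2 did not pass (0.33, 95% interval -0.26 to 0.93). Class II genes that passed the filter, H2-Aa, H2-Ab1 and H2-Eb1, did not pass the test, with adjusted p of 0.461, 0.727 and 0.102. Interferon factors were not uniform: Irf1 had 105 and 143 TPM in EpiSCs, against 15.3, 3.09 and 3.18 TPM in HFSCs, whereas Ifitm2 was lower (896 and 757 TPM in EpiSCs, against 2134, 1927 and 1712 TPM in HFSCs).

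The motifs of the interferon element, kappa-B and AP-1 (TGANTCA) were searched on both strands of all promoters in the RefSeq table. The kappa-B letters stood in 0.0999% of 27025 genes with an entry, in 0.167% of tested genes with one, and in 4 of the 17 higher members of the list that had one (H2-D1, H2-K1, H2-Q6 and H2-Q7). Those 4 are paralogs with similar promoters, so the matches are not independent. H2-K1 had 2 entries with nearby starts, and the letters stood in both. Over all genes, the kappa-B letters stood in 6 of 1570 (0.382%) of those higher and 0 of 1299 of those lower in EpiSCs. The 6 include the 4 paralogs. The interferon element stood in 3.46% of all, in 2.96% of tested genes and in 6 of the 17 (B2m, Gbp2, H2-T22, Irgm1, Isg15 and Oas1a). The list was drawn up for interferon response, so its members can hold this element whatever their call. Matches among members not called were not counted, so the 6 of 17 cannot be tied to the higher level in EpiSCs. Over all genes higher in EpiSCs the interferon element stood in 2.74%, near its share in tested genes. The AP-1 letters stood in 3 of the 17 list members, in 7.26% of all genes higher, in 5.31% of all genes lower and in 5.28% of tested genes. A match describes the letters and not a bound factor. Only exact letters were searched, so a promoter without a match can still hold such an element.

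Nuclear genes of oxidative phosphorylation seldom passed the test. Of 77 nuclear genes of oxidative phosphorylation, 7 were higher (0 and 0) and 6 lower (2 and 1) in EpiSCs, both under the background shares of 17% and 14.7%, and the median was 0.05. With mitochondrial transcripts kept in the total, 44 of them were higher, so the direction of this list depends on that choice. Ndufa11, a subunit of complex I, was the exception in size, with 591 and 476 TPM in EpiSCs, against 3572, 2135 and 2277 TPM in HFSCs. Glycolysis genes were higher in 8 (3 and 3) and lower in 5 (1 and 2) of 23 cases. The lactate exporter Slc16a3 had 23 and 33.2 TPM in EpiSCs, against 0, 0 and 0.0917 TPM in HFSCs. The main glucose transporter Slc2a1 had 159 and 216 TPM in EpiSCs, against 22.1, 21.2 and 19.1 TPM in HFSCs. Hexokinase 2 (Hk2), with 2.78 and 2.9 TPM in EpiSCs, against 29.3, 11.4 and 15.3 TPM in HFSCs, and Pdk2, a kinase that restrains pyruvate oxidation, with 9.25 and 12.6 TPM in EpiSCs, against 48.5, 83.2 and 49 TPM in HFSCs, were lower. Of 32 genes of fatty acid use, 10 were higher (0 and 0) and 2 lower (0 and 0), with the ligase gene Acsl1 (3.10) and the receptor Ppara (2.91) foremost. The sterol gene Hmgcs1 (2.61) was higher and Mvd (-2.48) lower.

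Genes of cell division were more often higher than lower in EpiSCs. 19 of 45 cell cycle genes were higher (5 and 5) and 2 were lower (1 and 2), median 1.39. Cdk1, the kinase of mitosis, had 25.5 and 27.2 TPM in EpiSCs, against 2.26, 7.78 and 1.61 TPM in HFSCs. Mcm2, a subunit of the replication helicase, had 60.2 and 68.2 TPM in EpiSCs, against 10.7, 8.69 and 14.1 TPM in HFSCs. HFSC library 2 stood above the other two in Cdk1 and in the proliferation marker Mki67 (2 and 2.13 TPM in EpiSCs, against 0.51, 2.1 and 0.00741 TPM in HFSCs, not called). Cdkn1c, which encodes the cell cycle inhibitor p57, had 1.65 and 2.93 TPM in EpiSCs, against 32.4, 22.3 and 13.3 TPM in HFSCs. The list also holds the inhibitor gene Cdkn1a, which was among its higher members. Of ribosome biogenesis genes, 11 of 25 were higher (1 and 1), led by Myc (594 and 719 TPM in EpiSCs, against 65.3, 99.5 and 61.3 TPM in HFSCs), while the related Mycn had 0.267 and 0.636 TPM in EpiSCs, against 8.46, 4.13 and 5.71 TPM in HFSCs. Of 76 cytosolic ribosomal proteins, 10 were higher and 0 lower, against 17% and 14.7% of all tested genes. Their median was 0.09, and it was -0.08 without EpiSC library 1 and 0.27 without library 2. With mitochondrial transcripts kept in the total, 55 were higher, at a median of 0.57.

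Stress and immediate early genes, which tissue dissociation and sorting also induce, were higher in EpiSCs: 25 of 35 (17 and 15) against 2 lower (1 and 1), median 1.74. Their summed level was 59118 and 71506 TPM in EpiSC libraries, against 22706 to 31164 TPM in HFSC libraries. Fosl1, a subunit of the AP-1 transcription factor, had 329 and 408 TPM in EpiSCs, against 6.45, 8.96 and 6.35 TPM in HFSCs. Its relative Fosb had 591 and 783 TPM in EpiSCs, against 79, 113 and 66.4 TPM in HFSCs. Heat shock gene Hspa1a was lower (-0.77). The part of handling in these differences was not tested.

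The fed HFSC libraries of this experiment differed from other HFSC libraries of the series in these genes. In 2 libraries of the 2nd telogen and 2 of long-term fed mice, which lie in further tables, Fosl1 ranged over 501 to 961 TPM, above its EpiSC level. Cebpb, with 404 and 446 TPM in EpiSCs, against 3.68, 2.64 and 5.49 TPM in HFSCs, ranged over 177 to 951 TPM in those 4. Cdkn1a, which encodes the p53 target p21, had 1136 and 1279.8 TPM in EpiSCs, against 242, 184 and 215 TPM in HFSCs, and 1558 to 2716 TPM in those 4. For these genes the fed HFSCs were the low group, and the EpiSC values were not high beside the other HFSCs. Of the 2003 genes higher in EpiSCs than in fed HFSCs, 1455 (72.6%) were also above all 4 of those libraries, 519 overlapped with them and 29 were below all 4; among genes not called, 25.6% were above. Of the 1724 lower genes, 1085 (62.9%) were also below all 4, against 7.73% of genes not called. Among immediate early genes, 9 of 25 higher members lay above all 4, among chemokines and cytokines 13 of 23, and among MHC and interferon genes 15 of 21. In the Notch list 11 of 11 lay above, and in the Wnt list 17 of 18 lay above and 17 of 17 below. The remaining higher Wnt member, Fzd8, lay below all 4. Of the 23 lower HFSC identity genes, 22 lay below, with Krt15 the exception. Among the 12 largest fold changes named above, 10 lay above all 4, while Cebpb and Krt16 overlapped with them. All 12 of the smallest lay below. Myc and Slc2a1, both higher in EpiSCs than in fed HFSCs, overlapped as well. In the cornified envelope list, 5 of 7 higher members lay above. Of its 11 lower members, 6 lay below and 5 overlapped, among them Lor and Crct1. The telogen table also holds fed HFSC libraries 2 and 3, with equal values in all 35674 genes (within 1e-06 TPM), under column names that start with ana1, a term the labels do not explain. The submitters' processing notes name different trimming tools for these libraries, and the sample labels give an age for none and a hair cycle stage for the telogen libraries alone. The parts of these cannot be told apart, so these are counts with no test.

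**Figure D5:**
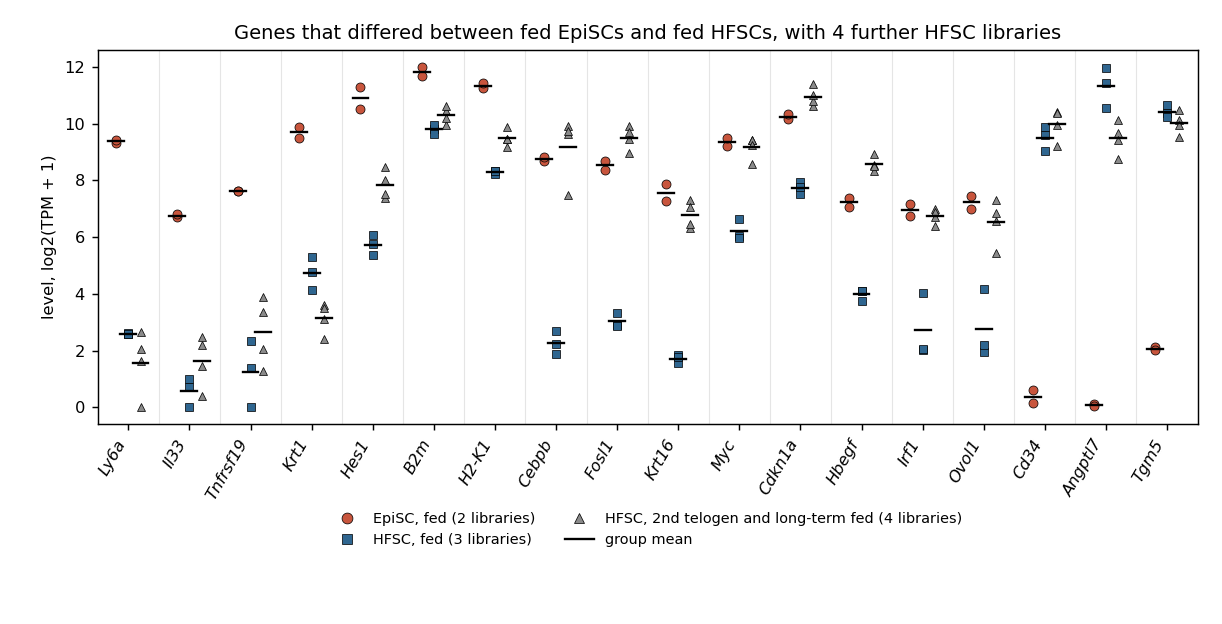
Levels as log2(TPM + 1) in fed EpiSCs, in the fed HFSCs they were compared with, and in 4 HFSC libraries of the 2nd telogen and of long-term feeding, bars at the group means. From Ly6a to H2-K1 the EpiSCs lie above both HFSC sets, from Cebpb to Ovol1 the 4 further HFSC libraries lie near or above EpiSCs, and Cd34, Angptl7 and Tgm5 are high in all 7 HFSC libraries.

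Markers of other cell types were summed in each library. Those of endothelium came to 0.602 and 1.01 TPM in EpiSC libraries and 1.39 to 3.13 TPM in HFSC libraries, and markers of immune cells 21.5 and 30.8 TPM in EpiSC libraries and 12.2 to 18.7 TPM in HFSC libraries, with 2 of 14 immune markers at 0 in both EpiSC libraries and 7 at 0 in all HFSC libraries. Fibroblast markers summed to 14.7 and 14.9 TPM in EpiSC libraries and 95.8 to 131 TPM in HFSC libraries, with the pan-fibroblast collagen gene Col1a1 at 0 in both EpiSC libraries and Col6a1 the main member in HFSCs (4.74 and 8.31 TPM in EpiSCs, against 74, 98.5 and 82.2 TPM in HFSCs). Melanocyte markers summed to 3.18 and 3.23 TPM in EpiSC libraries and 41.1 to 69.8 TPM in HFSC libraries, with Tyrp1, Mlana, Kit and Sox10 at 0 in both EpiSC libraries and Mitf, the main member, at 1.2 and 1.79 TPM in EpiSCs, against 45.8, 46 and 24 TPM in HFSCs. Sebocyte markers summed to 13.5 and 15 TPM in EpiSC libraries and 75.8 to 99.97 TPM in HFSC libraries. In the other direction, the nerve growth factor receptor Ngfr, on the Schwann cell list, had 52.9 and 72.5 TPM in EpiSCs, against 3.35, 3.02 and 0 TPM in HFSCs. Of the tested markers, 4 of 7 fibroblast and 3 of 3 melanocyte genes were lower in EpiSCs, and no immune gene was called. 1 fibroblast gene, Thy1, with 8.39 and 3.64 TPM in EpiSCs, against 0, 0.655 and 0 TPM in HFSCs, and 2 of 3 Schwann cell and neural genes, Ngfr and Mbp (17.3 and 18.9 TPM in EpiSCs, against 0.4, 2.9 and 0.318 TPM in HFSCs), were higher. The part of such cells in the results was not tested.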

How the data were processed

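Messenger RNA of sorted skin stem cells was measured by RNA sequencing. The deposited tables give TPM per gene symbol and library, scaled by the authors to the same total per library; fastp 0.23.1 is named for the short experiment, Trimmomatic 0.39 for the other libraries, and Salmon 1.4.0, DESeq2 1.36.0 and mm10 for all, per the submitters' processing notes. The annotation is not given in the sources used here. TPM keeps no read depth, so the depth is unknown and no counting interval is given.

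Symbols starting with mt- were removed, each library was rescaled to that total, and genes with a mean of at least 1 TPM over the 5 fed libraries as deposited were kept. Log2(TPM + 1) was compared by limma's moderated test with trend (limma 3.58.1, R 4.3.3, Benjamini-Hochberg adjustment over all genes tested, threshold 0.05), and the share of mitochondrial transcripts by an exact permutation test. The test was checked on simulated data. Each column of levels was matched by name to its sample or, for the 2nd telogen, to its group. Positions are those of GENCODE M21 and promoters those of the RefSeq table, in which 9008 tested genes had an entry. Deviations of EpiSC and HFSC libraries from their group means correlated at r of -0.05 to 0.05 across genes. The deviations of the 2 EpiSC libraries mirror each other, so these values cannot decide whether samples were paired.

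The comparison, the gene lists and the tests were chosen with earlier results of these data known. Named genes are the 3 markers, the 12 largest and 12 smallest fold changes among called genes with at least 50 TPM in the higher group (no Gm or Rik symbols), up to 3 called members at each end of a list with up to 2 abundant members not called, and markers of other cells. Named by role after their values were seen were Axin2, Fzd1, Fzd2, Fzd3, Fzd6, Fzd7, Fzd8, Fzd10, Lgr4, Lrp6, Lef1, Tcf7l1, Sfrp1, Sostdc1, Wnt5b, Fst, Id1, Id3, Notch1, Notch3, Nrarp, Adam10, Adam17, Ptch1, Gli2, Gli3, Boc, Fgfr2, Fgfr3, Bdnf, Nrtn, Col4a6, Itgb4, Itgb6, Lama3, Lamb3, Npnt, Sparc, Krt5, Krt10, Krt14, Krt15, Gata3, Sox9, Lor, Ccl27a, B2m, H2-D1, H2-K1, H2-Ab1, H2-Eb1, Nlrc5, Psmb9, Tap1, Tap2, Mcm2, Mki67 and Fosb, and in the closing section Sod1 and Arntl. Also outside the rule are the genes named for a promoter match and the markers of other cells named at 0. Agrn, Apcdd1, Ccn1, Col7a1, Dkkl1 and Lama5 were also named after their values were seen.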

Additional observations from a re-analysis of the deposited data

How the results depend on the processing

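Depth is unknown and 2 EpiSC libraries set the power: with 1 EpiSC library, whose spread is then taken from the HFSCs, the number of genes higher in EpiSCs was 436 to 494 and that of lower genes 504 to 562, while leaving out 1 HFSC library gave 1702 to 2306 higher and 1534 to 1888 lower. With mitochondrial transcripts kept in the total, 3711 genes were higher and 1071 lower (77.6% of calls higher), and 7 calls changed direction. Both counts stayed within 1.5 times of 2003 and 1724 under median-ratio and quantile scaling, removal of ribosomal protein genes, pseudocounts of 0.1 and 5, other filters, limma without trend and a fit of all 11 libraries of the experiment, but single calls changed: 1117 were lost with no filter, 685 without trend and 544 with 11 libraries, among them 15, 10 and 8 of the 178 genes whose values are given. Removal of nuclear copies of mitochondrial sequence, added after the data were seen, turned the split to 1821 higher and 1903 lower. The labels do not say whether library numbers pair the samples. With a replicate block by title numbers 2059 genes were higher and 1757 lower, and by description numbers 1960 and 1815. The mitochondrial share in EpiSCs minus that in HFSCs was -27.4 percentage points, and -30.1 to -25.8 with 1 library left out. Of those 178 genes, 50 lost their call without EpiSC library 1 and 43 without library 2. Signs changed for Axin2 (0.36 with mitochondrial genes kept, -0.15 to 0.011 with 1 library left out), H2-Aa (-0.0535 to 1.52 with 1 left out, lowest without HFSC library 2), H2-Ab1 (0.21 with mitochondrial genes kept, -0.64 to 0.18 with 1 left out) and Id1 (0.032 with mitochondrial genes kept). Krt15 was at 0 after quantile normalisation.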

Other observations

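Antioxidant genes were divided between the cell types by member. Of 36 tested, 11 were higher in EpiSCs (3 and 4 without EpiSC library 1 or 2) and 12 lower (6 and 6). The metallothionein gene Mt4 had 472 and 398 TPM in EpiSCs, against 8.67, 19.6 and 36.5 TPM in HFSCs, and glutathione reductase (Gsr) had 66.6 and 72 TPM in EpiSCs, against 8.19, 11.6 and 6.18 TPM in HFSCs. On the other side, the superoxide dismutase gene Sod1 had 242 and 226 TPM in EpiSCs, against 1108, 919.6 and 1187 TPM in HFSCs, and the quinone reductase Nqo1 had 11.9 and 14.1 TPM in EpiSCs, against 86.9, 142 and 116 TPM in HFSCs. EpiSC libraries were above all HFSC libraries in the first 2 genes and below them in the others.

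Clock genes gave 7 higher (4 and 2) and 3 lower (1 and 1) of 19. Bhlhe40, a repressor within the clock, had 234 and 279.5 TPM in EpiSCs, against 13.9, 3.19 and 4.18 TPM in HFSCs. Rora, an activator of Arntl, had 137 and 148 TPM in EpiSCs, against 32.1, 22.9 and 24.3 TPM in HFSCs, and Arntl itself had 19.3 and 19.6 TPM in EpiSCs, against 7.36, 4.52 and 6.06 TPM in HFSCs. The labels do not give the hour at which skin was taken, and its part was not tested. Of 16 retinoid genes, 4 were higher (0 and 1) and 3 lower (1 and 1). Crabp1, a binding protein for retinoic acid, was listed at 0 in both EpiSC libraries, against 37.3, 99.6 and 101 TPM in HFSCs, whereas the receptor Rarg had 223 and 227 TPM in EpiSCs, against 55.4, 92.6 and 53.1 TPM in HFSCs. In the list of the unfolded protein and integrated stress responses, 9 of 32 were higher (2 and 2) and 2 lower (1 and 0), led by Herpud1, a part of the degradation machinery of the endoplasmic reticulum, with 383 and 451 TPM in EpiSCs, against 30.8, 40.2 and 38.2 TPM in HFSCs.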
